A study of Mus musculus with 8 samples.

Results

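The genes described here are 8 markers often used to recognise stem and progenitor cells in normal mammary gland and in mammary tumours. They were chosen by gene symbol from the count table of the series and comprise Cd34, Cd44, Cd24a, Prom1, Ly6a, Kit, Aldh1a1 and Aldh1a3, or 8 of the 27179 genes counted. The set was selected on results of the same libraries, in which Cd34 was among the strongest differences between the lines. Values that set 4T1 and 4T1.2 against 66cl4 and 67NR are therefore given for these 8 genes as a description, with no test, and Cd34 was tested in no comparison.

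The CD, LY6A, PROM1 and KIT genes encode proteins of the cell surface. CD34 is a sialomucin of haematopoietic progenitors, endothelial cells and some stromal cells, CD44 is the main receptor for hyaluronan, and CD24 is a small glycoprotein anchored by a lipid. PROM1 (CD133) is a pentaspan membrane glycoprotein, LY6A (Sca-1) is a lipid-anchored protein used to sort mouse haematopoietic stem cells, and KIT is the receptor tyrosine kinase for stem cell factor. Breast cancer cells with much CD44 and little CD24 on their surface, or with high aldehyde dehydrogenase activity, have been enriched for tumour-initiating cells in many transplantation assays. Much of that enzyme activity is attributed to the retinaldehyde dehydrogenases ALDH1A1 and ALDH1A3, which oxidise retinaldehyde to retinoic acid.

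Untreated cells of 4 mouse mammary tumour lines (67NR, 66cl4, 4T1 and 4T1.2) were sequenced as RNA, each line in 2 biological replicates. The lines are isogenic derivatives of a spontaneous mammary tumour of a BALB/c-background mouse, 4T1.2 is a single-cell clone of 4T1, and all were grown in αMEM with foetal calf serum. The study contrasted 4T1 and 4T1.2 cells, which metastasise readily, with the poorly metastatic 66cl4 and 67NR cells. Each line is a single culture model, so a difference between lines cannot be told apart from a difference in metastatic potential, and p-values measure only the spread between the 2 replicates of each line. Reads of these BALB/c-derived cells were aligned to the C57BL/6 genome, and whether counting used strand is not given in the sources used here.

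Between 37159840 and 66269681 reads were assigned to genes in each library. Levels are in CPM, the counts for each 1e6 counts of the genes tested, scaled by the TMM method. On this scale 3 counts stand at 0.0486 to 0.0818 CPM. Log2 levels correlated with r of 0.995 to 0.996 between the replicates of each line, and down to 0.779 between lines, across genes. No library stood apart from its replicate. Cells of the blood were not evident by the leucocyte genes Ptprc, with at most 2 counts in any library, and Cd3e, with none. The 10 haematopoietic markers summed to 4.17 to 6.79 CPM, most of it from Cd68 (1.61 to 5.11 CPM) and Coro1a (0.493 to 3.40 CPM). The 6 mast cell markers summed to at most 0.0431 CPM. The 8 endothelial markers summed to 9.74 to 10.1 CPM in 4T1, 1.96 to 2.08 CPM in 4T1.2 and 0.463 to 0.826 CPM in 66cl4 and 67NR. In the replicates of 4T1 most of this came from Tie1 (6.05 and 7.24 CPM) and Cdh5 (3.34 and 1.94 CPM). Pecam1 was at 0.295 and 0.237 CPM there, and Emcn had no count. Of the epithelial markers, the keratin gene Krt8 was abundant in every line, at 604 ± 3.22 CPM in 66cl4, 495 ± 45.3 in 67NR, 995 ± 126 in 4T1.2 and 1431 ± 241 in 4T1 (SD, n = 2 in each line). The E-cadherin gene Cdh1 had 629 to 2375 counts in the 4T1.2 and 4T1 libraries and 2 to 7 counts in those of 66cl4 and 67NR. Epcam had at most 1 count in a library of 66cl4 or 67NR, whereas the keratin gene Krt18 had 5219 and 5067 counts in 66cl4 and 30 and 70 in 67NR. The 8 epithelial markers summed to 464 to 719 CPM in 66cl4 and 67NR and 1461 to 2845 CPM in 4T1.2 and 4T1. The 9 mesenchymal markers summed to 2460 to 4382 CPM and 4956 to 7122 CPM, mostly from the vimentin gene Vim. Vim was higher in 4T1.2 and 4T1, at 4740 to 6901 CPM against 1892 to 3535. Cdh2, Zeb1, Twist1, Pdgfrb, Col1a1 and Col3a1 were higher in 66cl4 and 67NR, and libraries overlapped for Pdgfra and Dcn. In bulk RNA, fewer cells of a type and less RNA per cell cannot be told apart.

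The DNA immediately before the transcription start is shown for the members with the plainest contrast of levels: Cd34 and Aldh1a1, which differed most between lines, Cd44, which was high in all lines, and Kit, which was silent. Each line gives the 250 bases before the start listed by RefSeq (GRCm38.p6), read 5′ to 3′ on the gene's strand, with CpG dinucleotides in capitals. The Cd34 window is chr1:194938571-194938820 on the plus strand, the Cd44 window chr2:102901666-102901915 on the minus strand, the Kit window chr5:75574737-75574986 on the plus strand and the Aldh1a1 windows chr19:20492333-20492582 and chr19:20601718-20601967 on the plus strand. RefSeq lists 2 starts for Aldh1a1, both shown, and a second start for Kit 4 bases further on, which is not. No GENCODE transcript of Aldh1a1 matched the first of its starts, and 1 matched the second.
Cd34: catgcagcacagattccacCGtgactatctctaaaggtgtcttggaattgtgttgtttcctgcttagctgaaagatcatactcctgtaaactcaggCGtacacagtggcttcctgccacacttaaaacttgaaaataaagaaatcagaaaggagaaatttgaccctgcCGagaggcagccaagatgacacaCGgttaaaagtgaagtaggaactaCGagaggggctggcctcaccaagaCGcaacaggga
Cd44: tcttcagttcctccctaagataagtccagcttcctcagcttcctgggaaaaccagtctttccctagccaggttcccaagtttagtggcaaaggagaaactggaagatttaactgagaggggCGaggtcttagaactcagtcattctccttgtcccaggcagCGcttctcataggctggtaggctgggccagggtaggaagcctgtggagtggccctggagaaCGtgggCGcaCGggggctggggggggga
Kit: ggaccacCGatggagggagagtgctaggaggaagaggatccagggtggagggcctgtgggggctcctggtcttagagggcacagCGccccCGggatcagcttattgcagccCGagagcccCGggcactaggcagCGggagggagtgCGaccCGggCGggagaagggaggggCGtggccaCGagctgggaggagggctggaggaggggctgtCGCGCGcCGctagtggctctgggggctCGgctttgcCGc
Aldh1a1 first start: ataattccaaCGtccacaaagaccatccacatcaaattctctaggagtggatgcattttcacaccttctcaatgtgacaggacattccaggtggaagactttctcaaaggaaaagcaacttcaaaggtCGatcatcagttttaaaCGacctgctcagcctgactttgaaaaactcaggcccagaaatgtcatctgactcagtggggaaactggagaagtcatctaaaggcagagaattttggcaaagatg
Aldh1a1 second start: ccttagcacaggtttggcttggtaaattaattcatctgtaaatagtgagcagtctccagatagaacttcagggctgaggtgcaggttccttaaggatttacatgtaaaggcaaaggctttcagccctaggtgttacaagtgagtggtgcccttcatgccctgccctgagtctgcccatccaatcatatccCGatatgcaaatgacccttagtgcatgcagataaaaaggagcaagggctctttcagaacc
The Kit window held 17 CpG dinucleotides, more than 76.5% of the 32851 windows of this length held, although Kit had no count. The Cd34 window held 6, which is the median over all windows, the Cd44 window held 5 and the Aldh1a1 windows held 3 at the first start and 1 at the second. The windows were searched on both strands for 6 short motifs. The AP-1 motif TGACTCA was present in 4.46% of all windows and the GATA motif GATAAG in 6.55%. The E-box bound by ZEB factors, CACCTG, was present in 17.2% and the GC box GGGCGG, to which SP1 binds, in 32.7%. The CCAAT box (CCAAT) was found in 33.8% and the TATA box (TATAAA) in 12.4%. These letters occurred nowhere in the Cd34 window. The Cd44 window held a GATA match 232 bases before the start, the Kit window a GC box 98 bases before it, and the window of the second Aldh1a1 start a CCAAT match 72 bases before it. The window of the first Aldh1a1 start held an AP-1 match 57 bases and a ZEB E-box match 163 bases before it. A match describes the letters alone, and the files bear on no binding.

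Cd34 was nearly silent in 4T1.2 and 4T1 and among the more abundant transcripts in 66cl4 and 67NR. It had 13 and 15 counts in the replicates of 4T1.2, 30 and 23 in 4T1, 7867 and 12835 in 67NR, and 11190 and 10750 in 66cl4. Its level was 243 ± 5.12 CPM in 66cl4, 211 ± 4.71 in 67NR, 0.247 ± 0.0252 in 4T1.2 and 0.493 ± 0.00346 in 4T1 (SD, n = 2). The 4 libraries of 66cl4 and 67NR lay far above the other 4, and the replicates of each line lay apart from those of every other line. Averaged over each pair, 4T1 and 4T1.2 differed from 66cl4 and 67NR by -9.33 on the log2 scale (SE 0.09), that is, they were 645-fold lower. The SE is derived from the F statistic of the fit and understates the counting error of the few counts in 4T1.2 and 4T1. This contrast is the reason Cd34 was chosen and is not a test. By size it ranked 327 among 13927 genes, in a comparison in which 76.8% of the genes tested passed an adjusted p of 0.05 (38.1% higher and 38.6% lower in 4T1 and 4T1.2). Per length of transcript, Cd34 stood above 94.5% of the genes tested in 66cl4 and 93.1% in 67NR, and above 10.4% and 12.6% in 4T1.2 and 4T1. Within the pairs of lines the log2 differences were smaller, at -0.99 for 4T1.2 against 4T1 and 0.20 for 66cl4 against 67NR. Cd34 lies on chromosome 1 (194938821 to 194961292), and 1.04% of the 75-base stretches of its transcripts also occur in transcripts of another gene, Gm16897.

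**Figure D1:**
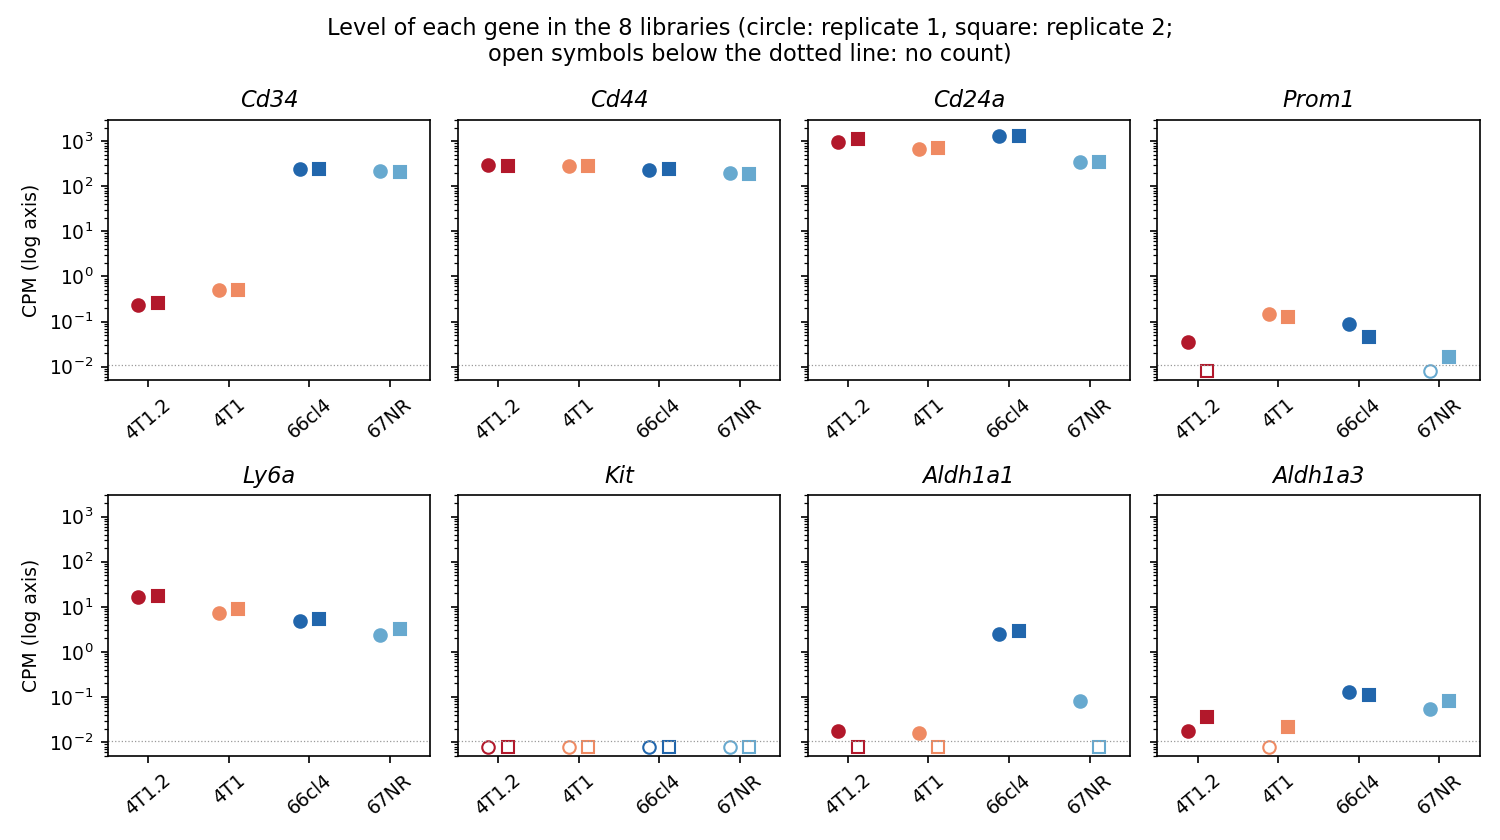
CPM of the 8 genes on a log axis, with 1 panel per gene, 1 column per line and 1 symbol per library; open symbols below the dotted line had no count. Cd34 sits near 0.2 to 0.5 CPM in 4T1.2 and 4T1 and above 200 CPM in 66cl4 and 67NR, Cd44 and Cd24a are high in all libraries, and Kit has no count in any.

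The genes whose pattern over the 8 libraries was most like that of Cd34 were Dpysl3, Twist2, Zeb1, Cacnb2 and Il15, with Pearson r of log2 CPM between 0.99866 and 0.99956. The 8 points form 2 clusters, and 259 genes had r above 0.99, so the likeness describes a contrast that many genes share. Twist2 and Zeb1 encode transcription factors known for repressing epithelial genes. Dpysl3 encodes a cytosolic phosphoprotein that acts on the cytoskeleton, Cacnb2 a calcium channel subunit and Il15 a cytokine for NK and T lymphocytes. Zeb1 was at 62.5 ± 3.59 CPM in 66cl4 and 64.1 ± 1.54 in 67NR, against 0.317 ± 0.0751 in 4T1.2 and 0.455 ± 0.00388 in 4T1 (SD, n = 2). Dpysl3 and Twist2 were at 10.1 to 32.7 CPM in 66cl4 and 67NR and at most 0.0297 CPM in 4T1.2 and 4T1.

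On the chromosome, genes beside Cd34 did not all share its pattern. The 3 nearest protein-coding genes of the count table on each side were taken after member values had been seen. Plxna2, a semaphorin receptor gene 122 kb before Cd34, was at 26.8 ± 1.12 CPM in 66cl4 and 19.5 ± 1.37 in 67NR, against 0.0881 ± 0.025 in 4T1.2 and 0.525 ± 0.141 in 4T1 (SD, n = 2). Cd46, 77.7 kb after Cd34, was at 0.68 to 0.897 CPM in the 4 lines. Cr1l, a complement regulator gene 137 kb after it, was at 39.4 to 54.7 CPM, with the highest value in 4T1. Camk1g and Lamb3 lie as far as 1568.5 and 1594.9 kb before Cd34. Camk1g was at 0.244 CPM in 66cl4 and 3.75 in 67NR, against 0.00881 in 4T1.2 and 0.0164 in 4T1. Lamb3 was highest in 4T1, at 2.64 CPM. Cr2, 175.5 kb after Cd34, was at 0.0176 to 0.11 CPM.

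**Figure D2:**
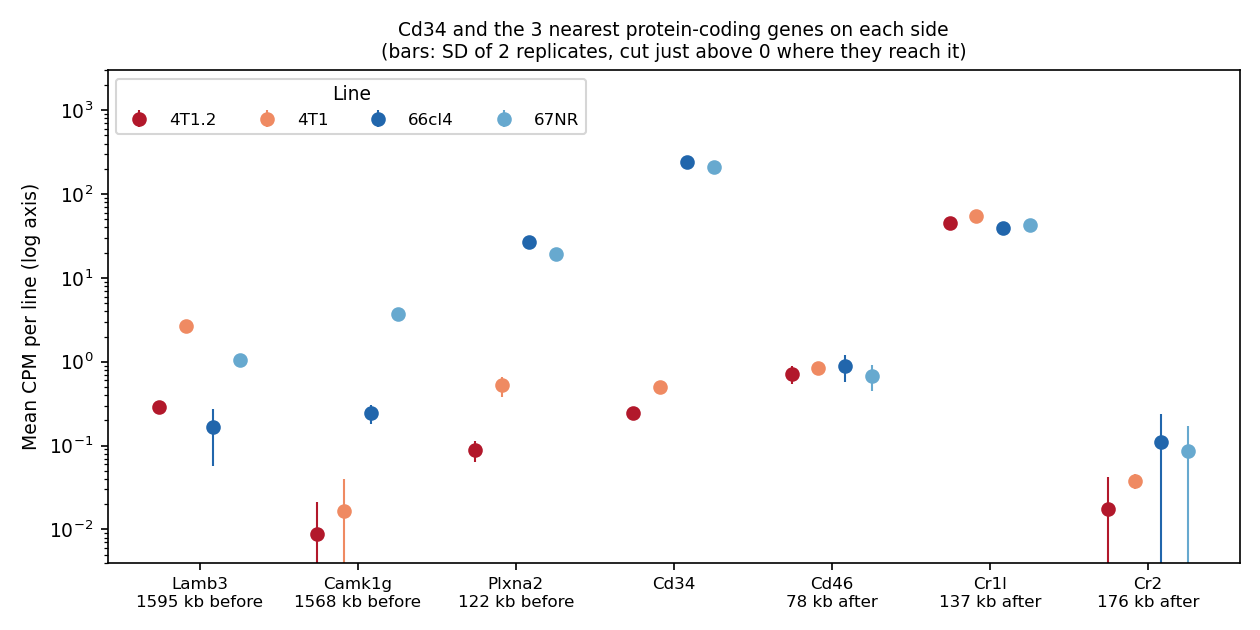
Mean CPM per line (log axis) of Cd34 and the 3 nearest protein-coding genes before and after it, with the SD of 2 replicates as bars. Plxna2 and, at lower levels, Camk1g follow the order of Cd34 between the pairs of lines, while Cr1l and Cd46 stand at like levels in all 4 lines.

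Cd44 and Cd24a, the pair of genes most used to describe breast cancer stem cells, were both abundant in every line. Cd44 had 7215 to 16917 counts per library. Its levels were 290 and 283 CPM in the replicates of 4T1.2, 277 and 287 in 4T1, 197 and 186 in 67NR, and 231 and 245 in 66cl4. The libraries of 4T1.2 and 4T1 overlapped, and all of them lay above those of 66cl4, which lay above those of 67NR. Averaged over each pair, Cd44 in 4T1 and 4T1.2 was 0.41 (SE 0.06) above 66cl4 and 67NR on the log2 scale, and 0.28 with library totals alone as the scaling. That scaling moved the median of all genes by -0.13. For 4T1.2 against 4T1 the log2 difference of Cd44 was 0.02 (SE 0.08, 95% interval -0.16 to 0.21, edgeR adjusted p = 0.887). The corresponding value for 66cl4 over 67NR was 0.31 (SE 0.08, 95% interval 0.13 to 0.50, edgeR adjusted p = 0.0118), and this call was lost without replicate 2 of 66cl4 (adjusted p = 0.0665) or replicate 2 of 67NR (adjusted p = 0.104). No 75-base stretch of Cd44 (chromosome 2, 102811141 to 102901669) occurs in another gene's transcripts.

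Cd24a varied more between lines than Cd44 did, and its order did not follow the division into 4T1 and 4T1.2 against the other lines. It was at 1285 and 1309 CPM in 66cl4, 353 and 352 in 67NR, 940 and 1090 in 4T1.2, and 658 and 709 in 4T1. The libraries of 66cl4 were highest, those of 4T1.2 and then 4T1 followed, and those of 67NR were lowest, with no overlap between lines. The pooled log2 difference was 0.30 (SE 0.07) with overlapping libraries, and 0.17 with library totals alone as the scaling. Cd24a was higher in 4T1.2 than in 4T1 by 0.57 on the log2 scale (SE 0.10, edgeR adjusted p = 0.00382). It was higher in 66cl4 than in 67NR by 1.88 (SE 0.10, edgeR adjusted p = 1.16e-06), the larger of its differences within a pair of lines. Per length, Cd24a stood above 98.2% to 99.7% of the genes tested in the 4 lines. It lies on chromosome 10 (43579169 to 43584265), and 1.1% of its 75-base stretches are shared with the predicted gene Gm6212.

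In RPKM, the CPM divided by the transcript length in kilobases, which set genes of different length side by side, Cd24a exceeded Cd44 in all 8 libraries. Cd24a was 10.1 and 12 times the level of Cd44 in 4T1.2, 7.40 and 7.70 times in 4T1, 17.4 and 16.6 times in 66cl4, and 5.59 and 5.87 times in 67NR. The ratio was thus lowest in 67NR and highest in 66cl4, both poorly metastatic lines. The ratio of transcripts says nothing of the protein on the cell surface, by which cells are sorted.

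**Figure D3:**
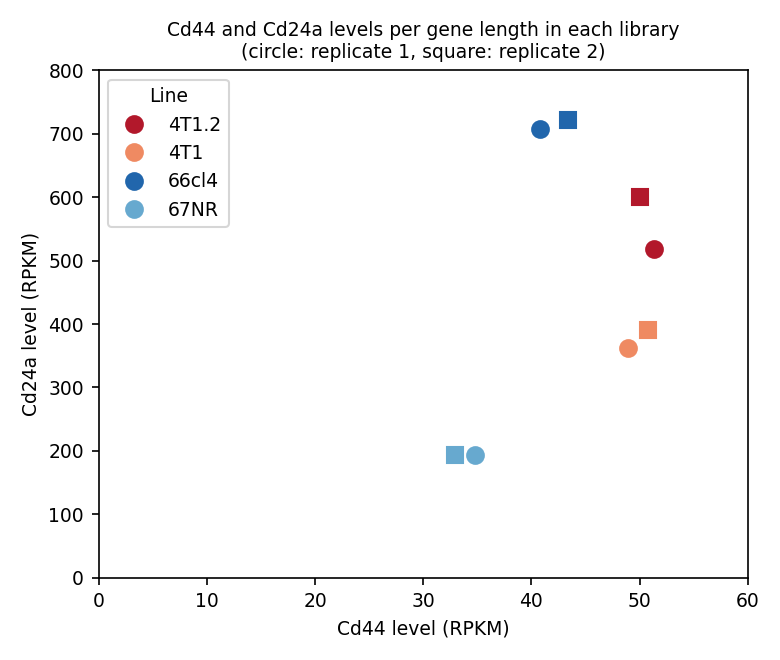
Cd44 level against Cd24a level, both in RPKM on linear axes, for each of the 8 libraries coloured by line. Cd44 spans 33.0 to 51.4 RPKM and Cd24a 194 to 721 RPKM, with 66cl4 at the top and 67NR at the bottom left.

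Ly6a, the gene of Sca-1, was at a low to moderate level and stepped down from 4T1.2 to 67NR. It had 224 and 241 counts in 66cl4, 87 and 202 in 67NR, 960 and 962 in 4T1.2, and 455 and 421 in 4T1. These counts correspond to 5.16 ± 0.304 CPM in 66cl4, 2.82 ± 0.635 in 67NR, 16.9 ± 0.0464 in 4T1.2 and 8.26 ± 1.15 in 4T1 (SD, n = 2), and no line overlapped the next. The pooled log2 difference was 1.62 (SE 0.12). Ly6a was higher in 4T1.2 than in 4T1 by 1.04 (SE 0.16, edgeR adjusted p = 0.00166) and higher in 66cl4 than in 67NR by 0.85 (SE 0.18, edgeR adjusted p = 0.00383). Of its 75-base stretches 6.33% occur in other genes' transcripts, mostly in those of Ly6c1, which was itself at 0.821 ± 0.0374 CPM in 66cl4, 0.613 ± 0.0198 in 67NR, 11.4 ± 0.762 in 4T1.2 and 13.2 ± 1.52 in 4T1 (SD, n = 2). The part of shared reads in the Ly6a values was not tested. Ly6a lies on chromosome 15 (74994877 to 74998031). Its neighbour Ly6e, 35.0 kb away, ran in the other direction between the pairs, at 1182 ± 9.29 CPM in 66cl4 and 1156 ± 14.2 in 67NR against 64.7 ± 1.04 in 4T1.2 and 18.5 ± 1.44 in 4T1 (SD, n = 2).

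Kit and Prom1 were at or near the limit of detection. Kit (chromosome 5, 75574987 to 75656722) had no count in any of the 8 libraries, among 439990389 counts in all. On the CPM scale, which uses the genes tested, Kit could stand at up to 0.00732 CPM over the libraries together. In the shallowest library the limit was 0.0818 CPM, both for counting error only. Its ligand gene Kitl, which encodes stem cell factor, was at 97.4 ± 23.1 CPM in 66cl4, 102 ± 1.55 in 67NR, 38.5 ± 2.37 in 4T1.2 and 89.4 ± 3.69 in 4T1 (SD, n = 2). Relative to 4T1, Kitl in 4T1.2 was lower (log2 difference -1.21, SE 0.14, edgeR adjusted p = 0.000381), while for 66cl4 against 67NR the difference was -0.06 (SE 0.14, adjusted p = 0.752). Pdgfra, another receptor kinase gene 377 kb from Kit, was at 86.4 to 162 CPM in the 4 lines, and Kdr, 276 kb on the other side, had at most 1 count in a library. Prom1 (chromosome 5, 43993621 to 44102047) had 4 and 2 counts in 66cl4, 0 and 1 in 67NR, 2 and 0 in 4T1.2, and 9 and 6 in 4T1. Its counts did not pass the filter on low values, and 3.65% of its 75-base stretches are shared with other transcripts. Its relative Prom2 had 0 to 7 counts per library.

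Aldh1a1 was detected at a low level in 66cl4 and hardly elsewhere. It had 111 and 129 counts in 66cl4, 3 and 0 in 67NR, 1 and 0 in 4T1.2, and 1 and 0 in 4T1. The level in 66cl4 was 2.66 ± 0.302 CPM (SD, n = 2), and in each of the other lines the libraries held 3 counts or fewer. Against 67NR the ratio of summed levels was 87.3, with a 95% counting interval of 29.5 to 427. Against 4T1.2 the ratio was 302 (53.7 to 11989) and against 4T1 it was 286 (50.9 to 11349). Aldh1a1 passed the filter on low values through 66cl4 alone and so had to differ, and these ratios are a description with no test. It lies on chromosome 19 (20492583 to 20643463) beside its close relative Aldh1a7, which shares 1.01% of its 75-base stretches and had 9 and 3 counts in 66cl4 and 0 or 1 in the other libraries. Even in 66cl4, Aldh1a1 stood above only 24.2% of the genes tested per length. Aldh1a3 (chromosome 7, 66390892 to 66427477) had 6 and 5 counts in 66cl4, 2 and 5 in 67NR, 1 and 2 in 4T1.2, and 0 and 1 in 4T1, and did not pass the filter.

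In the within-pair comparisons, 5 of the 8 genes passed the filter on low values, of which Cd34, chosen for its contrast, and Aldh1a1, retained through 66cl4 alone, are set aside. For 4T1.2 against 4T1, Cd24a and Ly6a passed the test, both higher in 4T1.2, where 19.3% of all genes passed (9.37% higher and 9.92% lower). For 66cl4 against 67NR, Cd44, Cd24a and Ly6a passed, all higher in 66cl4, where 44.6% of all genes passed (22.2% higher and 22.4% lower). These counts cover a few genes that were chosen with their levels known and are a description.

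The remaining aldehyde dehydrogenases make up nearly all transcripts of the family in these cells. Over 21 family genes, the summed level was 952 and 912 RPKM in 66cl4, 860 and 873 in 67NR, 553 and 612 in 4T1.2, and 486 and 544 in 4T1. Aldh2, the mitochondrial enzyme that clears acetaldehyde, gave 49.8% to 64.6% of this sum in every library. Aldh3a1, a cytosolic enzyme for aromatic and lipid aldehydes, gave 6.28% in 4T1.2 and 4.86% in 4T1 but 18.9% in 66cl4 and 32.8% in 67NR. Aldh3a2, the fatty aldehyde dehydrogenase, ran the other way with 17.9%, 15.2%, 2.23% and 2.16%. The retinaldehyde dehydrogenases Aldh1a1, Aldh1a2 and Aldh1a3 together gave 0.131% and 0.159% in 66cl4 and at most 0.00655% in every other library. Aldh1a2 itself had no count in any library.

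**Figure D4:**
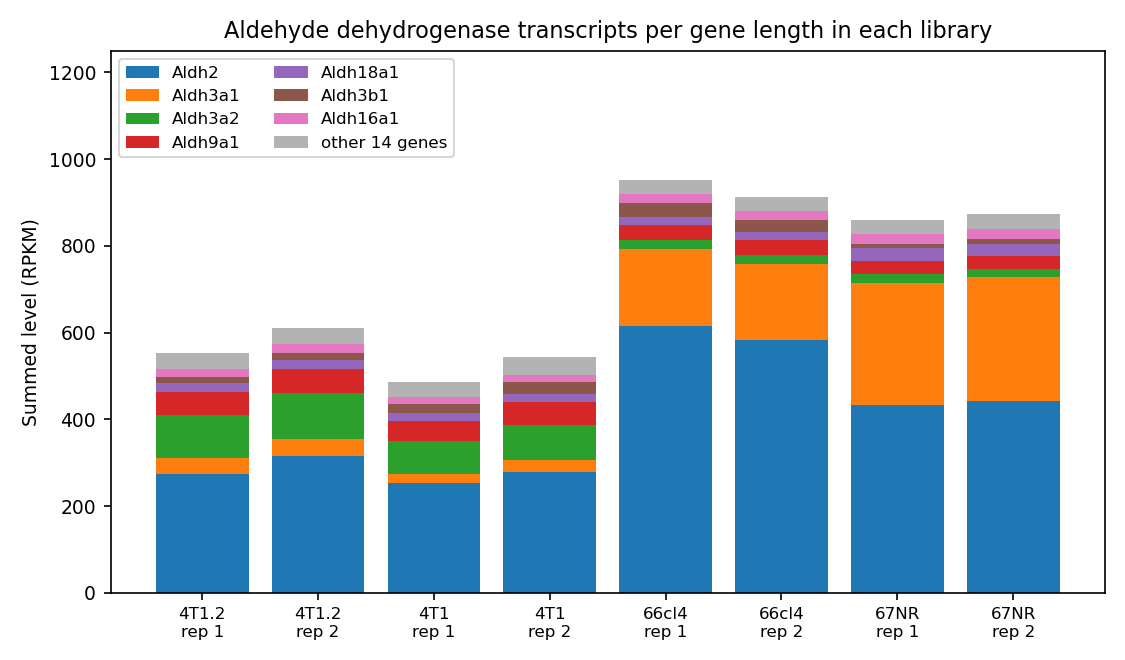
Summed level of 21 aldehyde dehydrogenase genes in RPKM for each library, stacked by gene, with the 14 least abundant genes in grey. Aldh2 forms the largest block in every bar, Aldh3a1 is larger in 66cl4 and 67NR, and Aldh3a2 is larger in 4T1.2 and 4T1.

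Of the 19 aldehyde dehydrogenases other than the members, 13 could be tested. Comparing 4T1 and 4T1.2 with 66cl4 and 67NR, 4 were higher and 8 lower, where 38.1% and 38.6% of all genes were, with a median log2 difference of -0.25 beside -0.01 over all genes. Aldh2 was lower (log2 difference -0.87, SE 0.07, edgeR adjusted p = 2.56e-06), with 556 to 696 CPM in the 4T1.2 and 4T1 libraries and 955 to 1356 CPM in the others. Aldh3a1 was lower (log2 difference -2.89, SE 0.08, edgeR adjusted p = 3.29e-10). Aldh1l2, a mitochondrial folate enzyme, was lower (log2 difference -2.47, SE 0.11, edgeR adjusted p = 1.79e-08), from 44.5 ± 2.92 CPM in 67NR to 4.08 ± 0.985 in 4T1 (SD, n = 2). Its cytosolic counterpart Aldh1l1 had 35 and 23 counts in 66cl4, 117 and 258 in 67NR, 0 and 0 in 4T1.2, and 2 and 1 in 4T1, a ratio of 169 between the pairs with a counting interval of 57.5 to 824. Aldh5a1, which degrades succinic semialdehyde in the catabolism of GABA, had 779 to 1188 counts in the 4T1.2 and 4T1 libraries and 1 to 7 in the others. Aldh1l1 passed the filter on low values through 66cl4 and 67NR alone, and Aldh5a1 through 4T1.2 and 4T1 alone. Both are counted above but had to differ, and their pooled values are a description with no test. Within the 4T1 pair 2 genes were higher and 1 lower in 4T1.2 (9.37% and 9.92% of all genes), among them Aldh3a1 (0.54, SE 0.10, edgeR adjusted p = 0.00497) and Aldh3b1 (-0.60, SE 0.15, edgeR adjusted p = 0.0212). None of these passed without replicate 2 of 4T1.2. For 66cl4 against 67NR, 4 were higher and 4 lower (22.2% and 22.4% of all genes), 5 in all without replicate 1 of 67NR, and Aldh1l1 (-2.53, SE 0.27, edgeR adjusted p = 0.000106) and Aldh1l2 (-1.52, SE 0.15, edgeR adjusted p = 2.99e-05) differed most.

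Genes that make, carry, sense and degrade retinoic acid moved in both directions. Of 19 such genes 14 were tested, and 4 were higher and 6 lower in 4T1 and 4T1.2, with a median log2 difference of -0.12. Of all genes 76.8% passed in this comparison, so the share of retinoid genes called was near that of all genes. Dhrs3, which reduces retinaldehyde back to retinol, was higher by 2.95 (SE 0.29) at only 3 to 75 counts per library. Dhrs3 passed the filter on low values only with the 4T1.2 and 4T1 libraries, so this pooled value is a description with no test. The receptor gene Rarb was higher by 1.47 (SE 0.28, edgeR adjusted p = 0.000773) at 6 to 39 counts. Cyp26b1, which degrades retinoic acid, was lower (log2 difference -1.89, SE 0.11, edgeR adjusted p = 1.13e-07), at 26.8 ± 2.78 CPM in 66cl4, 14.1 ± 1.01 in 67NR, 7.95 ± 1.37 in 4T1.2 and 3.45 ± 0.16 in 4T1 (SD, n = 2). For 4T1.2 against 4T1, 4 were higher and 2 lower (9.37% and 9.92% of all genes), with a median of -0.18, led by Cyp26b1 (1.2, SE 0.16, edgeR adjusted p = 0.000717) and Dhrs3 (-1.15, SE 0.28, edgeR adjusted p = 0.0175). In 66cl4 relative to 67NR, 5 were higher and 2 lower, with a median of 0.88, and 44.6% of all genes passed. Among them the retinol dehydrogenase gene Dhrs9 was higher by 2.27 (SE 0.16, edgeR adjusted p = 4.56e-06). Fabp5, which carries fatty acids and retinoic acid, was lower (log2 difference -1.54, SE 0.14, edgeR adjusted p = 1.90e-05).

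Most other surface markers of stem and progenitor cells ran against Cd34 between the pairs of lines. Of 19 such genes 13 were tested, and 11 were higher and 1 lower in 4T1 and 4T1.2, with a median log2 difference of 4.33, beside 38.1% and 38.6% of all genes. The list was drawn up with results of these libraries known, and epithelial genes, several of which it holds, were already known to differ. Procr, Epcam, Abcg2, Itgb3 and others of the 11 passed the filter on low values through 4T1.2 and 4T1 alone. They had to differ, so their pooled values and the count of 11 are a description with no test. With at least 10 counts in every library, only Itgb1, Itga6, Cd14, Alcam, Met, Eng and Nt5e remained, of which 6 passed. In the main fit Alcam was lower (log2 difference -0.21, edgeR adjusted p = 0.0396) and Itgb1 did not pass (edgeR adjusted p = 0.084). Libraries of Met overlapped between the pairs. Of all genes 76.8% passed in the main fit. Procr, the endothelial protein C receptor that marks a mammary stem cell population, had 0 and 0 counts in 66cl4, 2 and 4 in 67NR, 5859 and 5718 in 4T1.2, and 4799 and 3889 in 4T1. Epcam, an epithelial adhesion molecule, had 0 and 0 counts in 66cl4, 1 and 0 in 67NR, 778 and 808 in 4T1.2, and 2378 and 2163 in 4T1. The drug transporter gene Abcg2 had 184 and 216 counts in 4T1.2, 1362 and 1193 in 4T1 and none in the 4 other libraries. It was at least 840-fold higher in the 4T1 pair against a floor of 3 counts over the group. The integrin gene Itgb3 (CD61), a marker of luminal progenitors, had 1100 to 2189 counts in the 4T1.2 and 4T1 libraries and 0 to 4 in the others.

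Within the pairs of lines the surface markers were divided. For 4T1.2 against 4T1, 4 were higher and 4 lower (9.37% and 9.92% of all genes), with a median of -0.10, and 5 in all passed without either replicate of 4T1.2. Abcg2 was lower in 4T1.2 (log2 difference -2.77, SE 0.16, edgeR adjusted p = 4.03e-05) as was Epcam (log2 difference -1.61, SE 0.15, edgeR adjusted p = 0.000162). Alcam, the adhesion molecule CD166, was lower (log2 difference -1.92, SE 0.12, edgeR adjusted p = 1.22e-05), at 10.1 ± 1.05 CPM in 4T1.2 against 38.3 ± 2.81 in 4T1 (SD, n = 2). Comparing 66cl4 with 67NR, 6 were higher and 1 lower (22.2% and 22.4% of all genes), with a median of 0.73. Procr, Epcam, Abcg2 and Itgb3 had at most 4 counts in every library of these lines. The genes tested and their median thus include fitted values that depend on the prior count. Nt5e, the ecto-nucleotidase CD73, was higher by 1.82 (SE 0.09, edgeR adjusted p = 5.66e-07), at 39.7 ± 0.493 CPM against 11.2 ± 0.0223 CPM (SD, n = 2). The lower gene was Procr, on 0 and 0 against 2 and 4 counts. Of the markers that could not be tested, Cd200, Cd55 and Cxcr4 had no count in any library, and Lgr5, Tspan8 and Thy1 had at most 2.

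**Figure D5:**
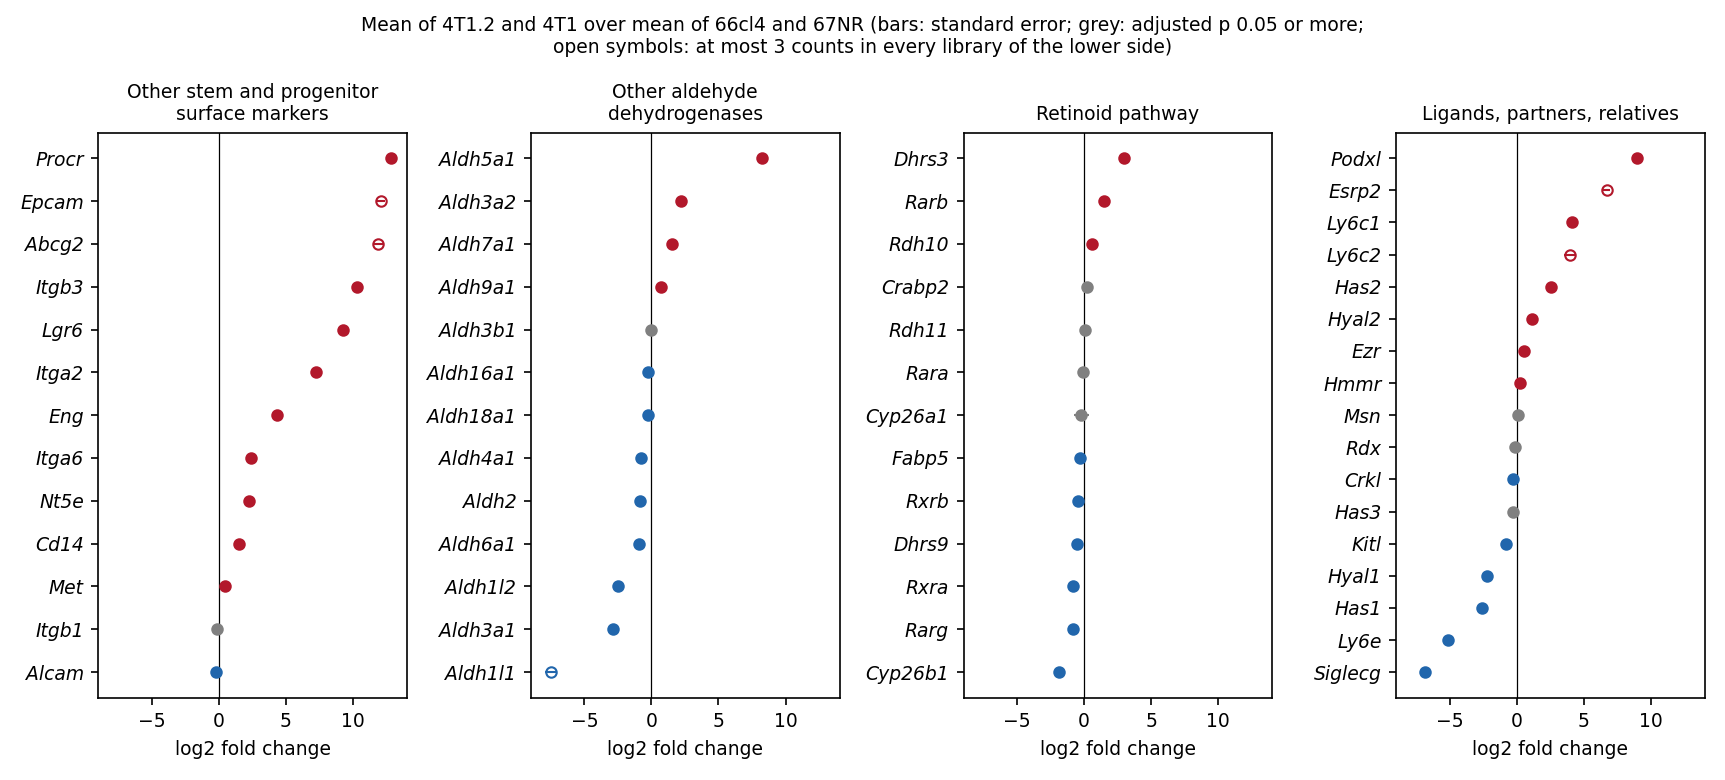
Log2 difference between the mean of 4T1.2 and 4T1 and the mean of 66cl4 and 67NR for genes of 4 lists that were tested, with SE bars; red and blue passed an adjusted p of 0.05, grey did not, and open symbols have at most 3 counts in every library of the lower side, where the fitted value depends on the prior count. Among the other surface markers 11 of 13 lie to the right and passed, while the other lists hold genes on both sides.

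Ligands, partners and relatives of the members were likewise divided. Of 24 such genes 18 were tested, and 8 were higher and 6 lower in 4T1 and 4T1.2, with a median log2 difference of 0.16. This share called was near the 76.8% of all genes. Podxl, which encodes podocalyxin, a sialomucin of the CD34 family, ran opposite to Cd34. It was at 0.221 and 0.178 CPM in 66cl4, 0.164 and 0.243 in 67NR, 120 and 100 in 4T1.2, and 108 and 84.2 in 4T1, a log2 difference of 8.95 (SE 0.17, edgeR adjusted p = 4.20e-11). In every line, then, Cd34 or Podxl was abundant and the other was nearly silent. The Cd34 side of this is the contrast for which Cd34 was chosen, and many genes divide the lines in the same way. A link between Cd34 and Podxl was not tested. Has2, a hyaluronan synthase gene that makes the ligand of CD44, was higher in 4T1 and 4T1.2 by 2.54 (SE 0.08, edgeR adjusted p = 8.32e-10), at 5.47 ± 0.0244 CPM in 66cl4, 7.70 ± 0.0555 in 67NR, 32.6 ± 0.415 in 4T1.2 and 43.9 ± 3.54 in 4T1 (SD, n = 2). Siglecg, a sialic acid-binding lectin gene whose product binds CD24, was lower (log2 difference -6.81, SE 0.17, edgeR adjusted p = 2.89e-10), at 8 to 16 counts per library in 4T1.2 and 4T1 and 897 to 1639 in 66cl4 and 67NR. Esrp2, a splicing regulator that acts on Cd44 transcripts, had 138 to 208 counts in the 4T1.2 and 4T1 libraries and 1 or 2 in the others. The ratio was 115, with a counting interval of 49.0 to 355. Esrp2 passed the filter on low values through 4T1.2 and 4T1 alone and had to differ, so this ratio is a description with no test. Counts per gene do not resolve the isoforms of Cd44. Ly6e was lower (log2 difference -5.08, SE 0.07, edgeR adjusted p = 1.49e-11).

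Within the 4T1 pair, 2 of these genes were higher and 3 lower in 4T1.2 (9.37% and 9.92% of all genes), with a median of 0.01, and 3 in all passed without either replicate of 4T1.2. Ly6e was higher by 1.81 (SE 0.09, edgeR adjusted p = 5.30e-06). Hyal1, a hyaluronan-degrading enzyme gene, was lower (log2 difference -1.29, SE 0.28, edgeR adjusted p = 0.0104), at 17 to 46 counts per library. For 66cl4 against 67NR, 4 were higher and 3 lower, with a median of 0.12, near the 44.6% of all genes that passed, and 4 in all passed without replicate 1 of 67NR. Has1, another hyaluronan synthase gene, was higher by 1.09 (SE 0.39, edgeR adjusted p = 0.0476) on 7 to 34 counts.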

How the data were processed

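RNA-seq libraries (Illumina TruSeq RNA v2, total RNA) of 4 mouse mammary tumour cell lines, with 2 biological replicates each, were analysed from the deposited read counts per Entrez gene. Rsubread alignment to mm10 and counting by featureCounts had been done by the authors, so these counts are raw. The 8 single-library tables were identical to the joint matrix. Of 27179 genes, 25275 (93%) matched a RefSeq gene table of GRCm38.p6. After filterByExpr, 15269 remained, and after removal of ribosomal, predicted, contig and unlisted genes (5.26% to 7.86% of the counts of a library) 13927 were tested.

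Lines were compared in R 4.3.3 by the quasi-likelihood F-test of edgeR 4.0.16 (with limma 3.58.1), using TMM scaling, 1 mean per line over all 8 libraries, the legacy fit, a prior count of 0.125 and Benjamini-Hochberg adjustment over all genes tested, with a threshold of 0.05. CPM and RPKM were computed from the counts, with the gene lengths of the deposited matrix and the TMM effective library size of the genes tested. Each SE was the absolute log2 difference divided by the square root of the F statistic. The 95% intervals of log2 differences were built from it. Where 1 side had few counts, as for Cd34, Podxl and Siglecg in the pooled comparison, this SE falls below the counting error. Floors, ratios of low counts and their 95% exact intervals cover counting error only. The biological coefficient of variation was 9.74%, and the script was tested on simulated data.

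The 8 members, the gene lists and the naming rule were chosen with earlier results of these data known. Named were the members, from each list up to 4 genes with the largest fitted pooled change past the threshold and no overlap of libraries, and up to 2 for each within-pair comparison, 6 genes named whatever their values (Kitl, Prom2, Podxl, Has2, Aldh1a2, Aldh2), and the 5 genes most like Cd34 (log2 CPM, prior count 2). For genes with few counts in a group the order by fitted change depends on the prior count. Genes chosen by this rule that are not reported here are left out of the text and figures. Neighbouring genes, Pdgfra, Kdr, the surface markers with at least 10 counts in every library and the markers that could not be tested were named outside this rule. Shared 75-base stretches came from GENCODE transcripts and promoters from RefSeq; Cd24a, Ly6a and Aldh1a3 had no entry. Alternatives were other scalings, filters, priors and fits, DESeq2 1.42.0, limma-voom, a replicate block, fits of 4 libraries and leaving out each library. Figures were drawn with matplotlib 3.10.9 in Python 3.11.15.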

Additional observations from a re-analysis of the deposited data

How the results depend on the processing

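Over the alternatives run, Cd24a and Ly6a passed the test in both within-pair comparisons, with the direction of each kept. The adjusted p of Cd24a reached at most 0.0423 and that of Ly6a at most 0.0321. The log2 difference of Cd44 between 4T1.2 and 4T1 reversed to -0.00199 without replicate 1 of 4T1, and leaving out single libraries gave up to 0.05. With at least 10 counts in every library, 6 other surface markers passed in the pooled comparison and 2 in 4T1.2 against 4T1, and 9 partner genes passed in the pooled comparison. Leaving out single libraries gave, for 4T1.2 against 4T1, 0 to 4 other aldehyde dehydrogenases, 5 to 8 surface markers and 3 to 5 partner genes past the threshold. Between 66cl4 and 67NR it gave 5 to 8 aldehyde dehydrogenases and 4 to 7 partner genes. Over all genes it gave 1373 to 3111 calls for 4T1.2 against 4T1 (1373 and 1427 without replicates 1 and 2 of 4T1.2) and 4142 to 6938 for 66cl4 against 67NR (4142 without replicate 2 of 67NR), where the full data gave 2687 and 6216. The 4 libraries of 4T1.2 and 4T1 alone gave 1728. Fewer samples or genes enter these fits. Otherwise 338 counts of calls stayed within 1.5 times, and 255 log2 differences of members kept their call or stayed within the replicate spread. The 10 untested log2 differences that moved further kept their direction.

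Replicate numbers showed no pairing that held over all lines, though same-numbered replicates of 4T1.2 and 4T1 shared part of their deviations. The main tests used no block. Deviations of same-numbered replicates correlated at 0.27 between 4T1.2 and 4T1, and between -0.12 and 0.07 for the other pairs of lines. A replicate block gave 10800, 2889 and 6424 calls for the pooled comparison, 4T1.2 against 4T1 and 66cl4 against 67NR. It changed no call of a member. Crossing the numbers of 66cl4, a choice made after seeing the data, gave 11147, 3698 and 7168 calls under the block. Library totals alone as the scaling moved the median pooled log2 difference of all genes to -0.14, and 41.9% of the calls were then higher in 4T1 and 4T1.2, compared with 49.7%. Levels of Prom1, Kit and Aldh1a3 in all lines, and of Aldh1a1 outside 66cl4, were too low for a comparison at this depth.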
